A study of Mus musculus with 17 samples.

Results

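Cortical microvessels of wild-type (WT) mice fell into a set with high and a set with low Lcn2 mRNA, and these sets were compared over all expressed genes. Of the 17 microvessel libraries of the series, 10 came from WT mice, and these 10 were divided by their measured Lcn2 level, so the sets were chosen by the Lcn2 counts themselves. In 5 of them Lcn2 reached 20 CPM or more, and these were taken as Lcn2-high. The other 5 lay below 20 CPM and were taken as Lcn2-low. CPM, counts scaled to a common library size, is the count of a gene over the total count of its library. The mice were 10 to 11 months old and were injected intraperitoneally with peptide at 10 mg/kg every 2 days over 2 weeks. The peptide was gp91-ds-tat, which inhibits the superoxide-producing oxidase NOX2, or sgp91-ds-tat, its control. Libraries labelled SC were taken as the control peptide and libraries labelled NOX2 as the inhibitor. Lcn2-high held 3 WT_SC libraries (replicates 1, 2 and 5) and 2 WT_NOX2 libraries (replicates 2 and 3). Lcn2-low held 2 WT_SC libraries (3 and 4) and 3 WT_NOX2 libraries (1, 4 and 5). The 7 libraries of APP/PS1 mice, a transgenic amyloid model, comprised 2 with control peptide (APP_SC) and 5 with inhibitor (APP_NOX2), and were used as libraries outside the rule. All groups received a peptide, and the labels give no sex, batch or litter. The labels do not say whether each library is 1 animal, so p-values measure the spread between libraries.

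Lcn2 encodes lipocalin 2, a secreted protein that binds bacterial siderophores and so withholds iron from bacteria. It is a classical acute-phase gene: cytokines such as interleukin 1 and interleukin 6 raise it in liver, epithelia, astrocytes and endothelium through NF-kappaB, STAT3 and C/EBP factors, and neutrophils store the protein in their granules. In the brain, endothelial cells and astrocytes are among the main producers after systemic inflammation. Cortical microvessel preparations hold endothelial cells, pericytes and astrocyte endfeet, the cell types that the labels name. Their markers were abundant in the 10 WT libraries. The endothelial receptor gene Flt1 lay between 998 and 1562 CPM, the pericyte gene Rgs5 between 511 and 886 CPM, and the astrocyte glutamate transporter gene Slc1a2 between 2376 and 3538 CPM. The neuronal gene Syt1 was also present, between 1390.4 and 2333 CPM.

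The Lcn2 values (ENSMUSG00000026822) that made the sets left a wide gap at the threshold. In the Lcn2-high set, Lcn2 was 54.6, 47.0 and 115 CPM in WT_SC replicates 1, 2 and 5, and 45.6 and 35.6 CPM in WT_NOX2 replicates 2 and 3. In the Lcn2-low set it was 2.18 and 0.617 CPM in WT_SC replicates 3 and 4, and 3.22, 3.42 and 5.19 CPM in WT_NOX2 replicates 1, 4 and 5. The nearest libraries on either side of the threshold were thus at 35.6 and 5.19 CPM. The means were 59.6 CPM ± 31.8 (SD, n = 5) and 2.92 CPM ± 1.68 (SD, n = 5). The fitted log2 difference was 4.27 ± 0.54 (SE), given without a test because Lcn2 chose the sets. Counts behind these values ran from 390 to 1078 per library in Lcn2-high and from 7 to 66 in Lcn2-low. Both peptides were present on both sides. In the APP/PS1 libraries Lcn2 was 4.79 and 4.52 CPM with control peptide and 2.82, 3.64, 5.03, 1.32 and 1.83 CPM with inhibitor, so 0 of 7 reached the threshold.

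**Figure D1:**
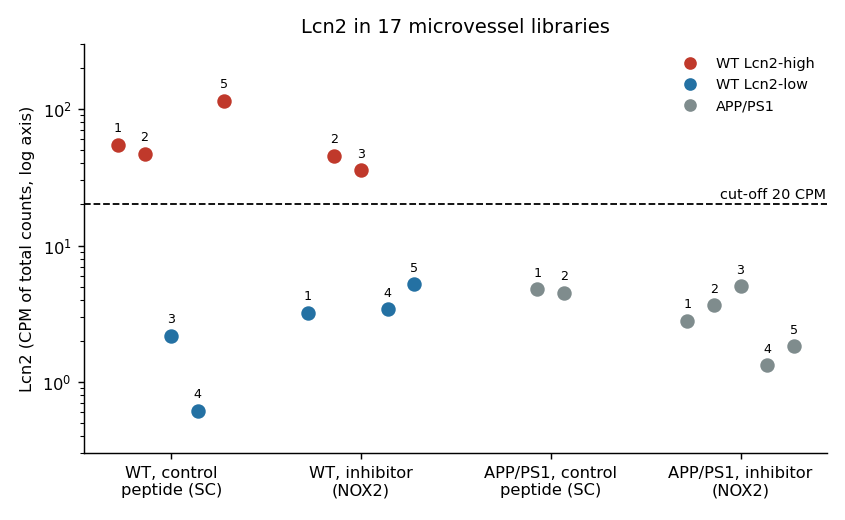
Lcn2 in each of the 17 libraries, as CPM of total counts on a log axis, by genotype and peptide; each point is a library with its replicate number, and the dashed line is the threshold of 20 CPM. The 5 Lcn2-high WT libraries lie at 35.6 CPM or more, and all other libraries lie at 5.19 CPM or less.

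Over 18033 genes tested with edgeR's quasi-likelihood test and peptide as a covariate, 173 genes besides Lcn2 differed between the sets at an adjusted p under 0.05, which is 0.959% of those tested. Only 9 were higher in Lcn2-high (0.0499%) and 164 were lower (0.909%). An unadjusted p under 0.05 was reached by 2113 genes (11.7%), of which 887 were higher (4.92%) and 1226 lower (6.8%). The median log2 difference over all genes was 0.01. Because Lcn2 made the sets in these same libraries, a p-value measures how a gene goes with Lcn2 over the 10 libraries. The count depended on single libraries. It was 27 without WT_SC 4 (0 higher), 79 without WT_NOX2 4, 102 without WT_NOX2 3, 106 without WT_SC 1 and 110 without WT_SC 2. WT_SC 4 is the library with the lowest Lcn2 of all 17. Total counts ran from 7316503 to 17862965 in the WT libraries and from 9535602 to 16292707 in the APP/PS1 libraries, and neither total counts (p = 0.349) nor the number of genes detected (p = 0.294) separated the sets in exact two-sided permutation tests over the 252 splits of 5 against 5.

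The genes higher in Lcn2-high were led by other acute-phase genes. Lrg1 (ENSMUSG00000037095) encodes leucine-rich alpha-2-glycoprotein, a secreted acute-phase protein that acts on endothelial TGF-beta signalling. Lrg1 was 16.5, 12.2 and 19.7 CPM in the Lcn2-high WT_SC libraries and 8.77 and 10.4 CPM in the Lcn2-high WT_NOX2 libraries, against 2.696 and 2.91 CPM and 3.04, 6.29 and 2.51 CPM in the Lcn2-low libraries. The sets did not overlap, and the fold difference was 3.76 (log2 1.91 ± 0.27 SE, adjusted p = 0.00627 by edgeR). Lrg1 kept its call with each library left out except WT_SC 4, without which its adjusted p was 0.0520 by edgeR. With the level of the choroid plexus transcripts described below in the fit, its log2 difference was 2.21 ± 0.51 (SE, unadjusted p = 0.000856 by edgeR). That fit called 0 genes after adjustment. Choroid level and set can hardly be told apart over these libraries, so this value is a description. In bulk libraries such as these, more cells of a type and more RNA per cell cannot be told apart.

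Serpina3n (ENSMUSG00000021091), a secreted serine protease inhibitor raised in reactive astrocytes and in endothelium, was the other acute-phase gene that passed. It was 34.9, 23.5 and 28.8 CPM in the Lcn2-high WT_SC libraries and 21.2 and 19.6 CPM in the Lcn2-high WT_NOX2 libraries. The Lcn2-low libraries held 12.4 and 10.1 CPM with control peptide and 13.5, 8.34 and 14.1 CPM with inhibitor. The sets did not overlap, with a fold difference of 2.09 (log2 1.06 ± 0.19 SE, adjusted p = 0.0158 by edgeR). Its call was lost without WT_SC 3 (adjusted p = 0.0580 by edgeR) and without WT_SC 4 (adjusted p = 0.101 by edgeR). Serpina3n belongs to a cluster of similar paralogs, and how reads shared among them were counted is not given in the sources used here. In the APP/PS1 libraries Serpina3n lay between 16.5 and 23.4 CPM, above the Lcn2-low WT libraries, although Lcn2 there was at the low level.

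Cd14, the lipopolysaccharide co-receptor of Toll-like receptor 4, and Bst1, a surface enzyme of the ADP-ribosyl cyclase family found on myeloid and endothelial cells, were higher from low levels. Cd14 (ENSMUSG00000051439) was 3.69, 2.39, 4.28, 6.42 and 4.20 CPM in the Lcn2-high libraries and 1.66, 1.499, 1.88, 1.503 and 2.59 CPM in the Lcn2-low libraries. The sets overlapped in 1 library each, and the fold difference was 2.42 (log2 1.28 ± 0.24 SE, adjusted p = 0.0195 by edgeR). Bst1 was 3.13, 1.35, 3.21, 0.982 and 3.11 CPM against 1.04, 0.353, 0.358, 0.683 and 0.629 CPM, where 3 counts in a library correspond to 0.168 to 0.410 CPM. Its fold difference was 3.70 (log2 1.89 ± 0.42 SE, adjusted p = 0.0485 by edgeR), and the sets overlapped. The call for Cd14 was lost without WT_SC 4, WT_NOX2 1, WT_NOX2 2 or WT_NOX2 4 (adjusted p = 0.0847, 0.0543, 0.0684 and 0.0564 by edgeR), and that for Bst1 held in 2 of the 10 fits that left out a library (adjusted p up to 0.241 by edgeR, without WT_SC 4).

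The other 5 higher genes changed by smaller folds and belong to other processes. Mobp, a myelin protein gene, was 245, 190, 236, 186 and 194 CPM in Lcn2-high against 181, 143, 125, 155 and 140 CPM in Lcn2-low, a fold of 1.38 (log2 0.46 ± 0.09 SE, adjusted p = 0.0303 by edgeR). It was the 1 gene of 7 oligodendrocyte markers that passed, and the median of that list was -0.01. Ptk2b, which encodes the calcium-responsive kinase Pyk2, was 1.36-fold higher (233, 175, 205, 212 and 234 CPM against 153 to 164 CPM). Zfp52, a zinc finger gene, was 1.64-fold higher, and Scrt2, a transcriptional repressor of the nervous system, 1.55-fold higher. Hist2h3b, a histone H3 gene with near-identical copies whose counts are therefore uncertain, was 2.05-fold higher from 2.04 CPM ± 0.37 to 4.00 CPM ± 0.89 (SD, n = 5 each). The sets did not overlap for these 5 genes. Of all 9 higher genes 7 had sets that did not overlap, beside 144 of all genes tested (0.799%). The 9 were called from these same sets, so a lack of overlap follows in part from that choice. Mobp kept its call in 4 of the 10 fits that left out a library, Zfp52 and Ptk2b in 3, Hist2h3b in 2 and Scrt2 in 1. Without WT_SC 4 their adjusted p-values by edgeR were 0.144, 0.142, 0.119, 0.187 and 0.112 in that order.

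**Figure D2:**
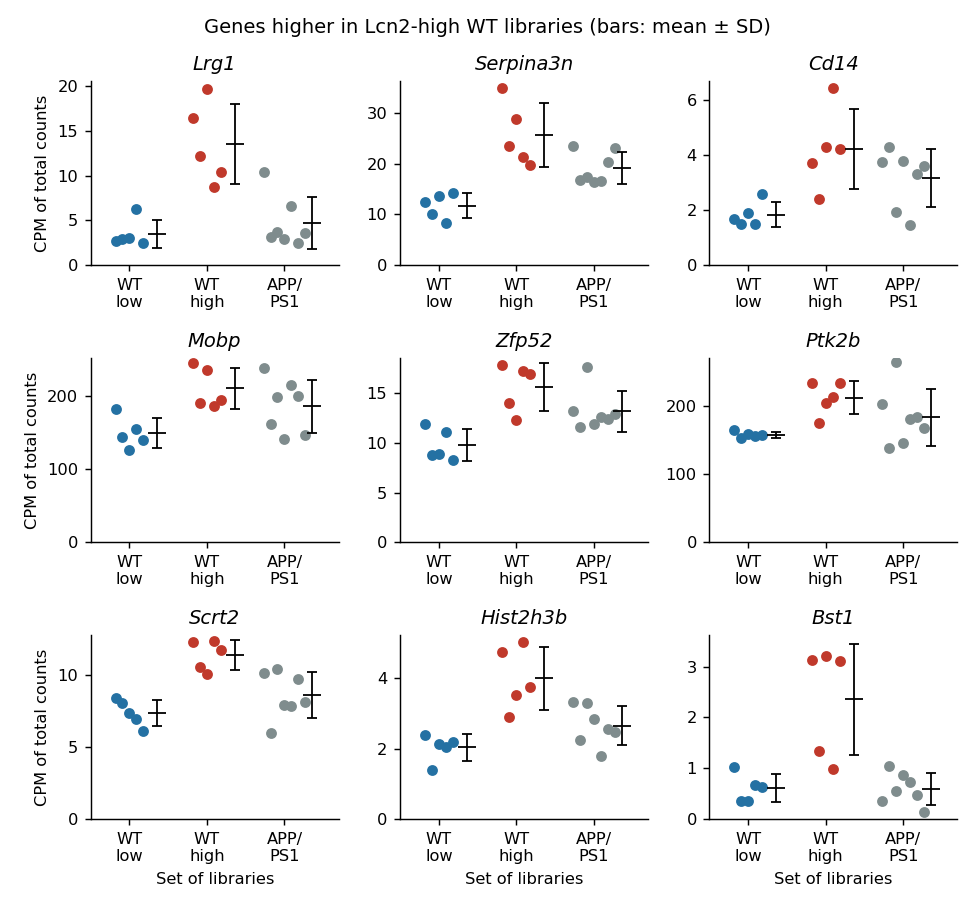
The 9 genes other than Lcn2 called higher in Lcn2-high, in CPM of total counts on linear axes from 0; points are libraries and bars the mean ± SD of a set (5, 5 and 7 libraries). Lrg1 is at 8.77 to 19.7 CPM in Lcn2-high and at 2.51 to 6.29 CPM in Lcn2-low, and the Cd14 and Bst1 sets overlap.

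The promoters of Lcn2 and of the acute-phase genes that moved with it are shown because these genes differed together. The sequences are the 250 bases before the annotated start, from RefSeq on build GRCm38.p6, written 5′ to 3′ on the gene's strand. The windows are chr2:32387740-32387989 (minus strand) for Lcn2, chr17:56121947-56122196 (minus strand) for Lrg1 and chr12:104406458-104406707 (plus strand) for Serpina3n. Capitals mark matches, on either strand, to a C/EBP motif (TTGCNNAA), a STAT motif (TTCNNNGAA), a glucocorticoid receptor motif (ACANNNTGT) or the NF-kappaB consensus.
Lcn2: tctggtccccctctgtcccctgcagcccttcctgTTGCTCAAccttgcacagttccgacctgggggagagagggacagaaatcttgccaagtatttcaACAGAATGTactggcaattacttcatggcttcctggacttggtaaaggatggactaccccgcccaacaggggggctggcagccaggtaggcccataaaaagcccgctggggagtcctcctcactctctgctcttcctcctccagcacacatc
Lrg1: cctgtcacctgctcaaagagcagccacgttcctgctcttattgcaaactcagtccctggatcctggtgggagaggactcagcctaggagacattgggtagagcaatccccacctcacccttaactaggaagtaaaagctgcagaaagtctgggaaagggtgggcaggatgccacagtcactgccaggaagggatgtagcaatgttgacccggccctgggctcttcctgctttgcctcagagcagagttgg
Serpina3n: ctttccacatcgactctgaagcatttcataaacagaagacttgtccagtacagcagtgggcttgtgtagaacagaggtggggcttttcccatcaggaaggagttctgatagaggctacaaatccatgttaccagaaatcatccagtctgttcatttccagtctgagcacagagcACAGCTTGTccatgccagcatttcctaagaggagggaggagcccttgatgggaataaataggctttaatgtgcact
The Lcn2 window held a C/EBP match (TTGCTCAA) and a glucocorticoid receptor match (ACAGAATGT). The Serpina3n window held a glucocorticoid receptor match (ACAGCTTGT), and the Lrg1 window held no match to the 4 motifs. Among all 32851 promoter windows of this length, 9.56% held the C/EBP motif, 7.02% the STAT motif, 5.84% the glucocorticoid receptor motif and 3.9% the NF-kappaB consensus. A match is a description of letters and not a measured binding site.

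Few other acute-phase genes were expressed. Of 17 secreted acute-phase genes, 5 had enough counts to be tested. Of these, 2 were called higher (Lrg1 and Serpina3n) and 0 lower, beside 0.0499% and 0.909% of all genes. At an unadjusted p under 0.05 by edgeR 4 were higher, beside 4.92% of all genes. The median log2 difference was 1.39, which is the value of Serpina3g, a gene that was not called (adjusted p = 0.211 by edgeR). Serpina3f was 2.58, 0.104, 0.107, 8.64 and 2.10 CPM in Lcn2-high and at most 1.07 CPM in Lcn2-low (log2 difference 2.82 ± 0.87 SE, adjusted p = 0.214 by edgeR), so its higher values came from 3 libraries. The serum amyloid gene Saa3, often raised with Lcn2, was at most 0.207 CPM in any WT library. Orm1, Orm2 and Serpina3m had 0 counts in all WT libraries.

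Of 13 tested acute-phase cytokine receptor genes only Cd14 was called, beside 0.0499% of all genes called higher, and the list median was 0.24. At an unadjusted p under 0.05 by edgeR, 3 of the 13 were higher and 0 lower, beside 4.92% and 6.8% of all genes. The oncostatin M receptor gene Osmr was 92.8, 47.6, 58.9, 103 and 74.7 CPM in Lcn2-high against 43.1 to 63.0 CPM in Lcn2-low (log2 difference 0.52 ± 0.20 SE, adjusted p = 0.316 by edgeR). Regulators of the JAK-STAT3 and C/EBP branch had a median of 0.40 over 10 tested genes, 9 of them positive, with 0 called and 3 higher at an unadjusted p under 0.05 by edgeR, beside 4.92% of all genes. Socs3, the feedback inhibitor of STAT3 signalling, had a log2 difference of 0.75 ± 0.22 (SE, adjusted p = 0.152 by edgeR). Cebpd, a C/EBP factor of the acute phase, was 24.9, 26.2 and 25.6 CPM in WT_SC 1, WT_NOX2 2 and WT_NOX2 3 and 7.78 and 9.73 CPM in the other 2 Lcn2-high libraries, against 6.99 to 11.5 CPM in Lcn2-low. Of 15 genes of the NF-kappaB pathway 0 were called and the median was 0.05, near that of all genes. At an unadjusted p under 0.05, 1 of these 15 was higher and 1 lower by edgeR, beside 4.92% and 6.8% of all genes.

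The Lcn2-high libraries were not alike in other inducible genes. Glucocorticoid-responsive genes were high in 2 of the 5. Plin4, a lipid droplet gene, was 165 CPM in WT_SC 1 and 151 CPM in WT_NOX2 3, and 18.6, 24.2 and 23.2 CPM in WT_SC 2, WT_SC 5 and WT_NOX2 2, against 8.90 to 21.3 CPM in Lcn2-low. Fkbp5, the glucocorticoid receptor co-chaperone gene, was 63.5 and 97.5 CPM in WT_SC 1 and WT_NOX2 3 and 11.7 to 17.02 CPM in the other 3. Hif3a showed the same libraries apart, at 114 and 87.9 CPM. All 15 tested genes of the list had positive differences with a median of 1.02, 7 of them at an unadjusted p under 0.05 by edgeR (beside 4.92% of all genes higher), and 0 were called. The summed level of the list was 1805 and 1652 CPM in WT_SC 1 and WT_NOX2 3, 471 to 900.1 CPM in the other Lcn2-high libraries, 520 to 706 CPM in Lcn2-low and 559 to 1124 CPM in APP/PS1. Without WT_SC 1 and WT_NOX2 3, an alternative added after seeing the data, 65 genes were called (2 higher and 63 lower). The higher genes Lrg1 and Serpina3n then had log2 differences of 1.92 and 1.03 (adjusted p = 0.0423 and 0.0457 by edgeR), beside 1.91 and 1.06 over all WT libraries. The other higher genes lost their calls, among them Cd14 (log2 difference 1.37, adjusted p = 0.0626 by edgeR) and Bst1 (1.35, adjusted p = 0.282 by edgeR). The part of the glucocorticoid-responsive genes in these differences was not tested.

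WT_NOX2 2 alone held a different inducible set, the adhesion molecules and mediators of activated venous endothelium. Sele, encoding E-selectin, was 28.0 CPM there and at most 1.60 CPM in the other WT libraries. Selp, encoding P-selectin, was 10.9 CPM there and at most 0.962 CPM elsewhere in WT. Icam1 was 98.6 CPM against 7.47 to 37.8 CPM, Vcam1 353 CPM against 60.4 to 176 CPM, and the neutrophil chemokine gene Cxcl1 9.56 CPM against at most 1.37 CPM in the other 9 WT libraries. Ptgs2, the inducible cyclooxygenase gene, was 120 CPM there and 29.1 to 49.4 CPM elsewhere in WT. Lcn2 in this library, at 45.6 CPM, was the second lowest of its set. Over the sets, 0 of 10 tested adhesion molecule genes were called, with a median of -0.14 and 3 lower at an unadjusted p under 0.05 by edgeR, beside 6.8% of all genes. Sele and Selp were not among the 10 tested. Icam1 (log2 difference 1.23) and Vcam1 (0.50) were the 2 with a positive difference, and 8 were negative. The adhesion, glucocorticoid and other genes named in these 2 paragraphs were chosen after their values were seen.

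**Figure D3:**
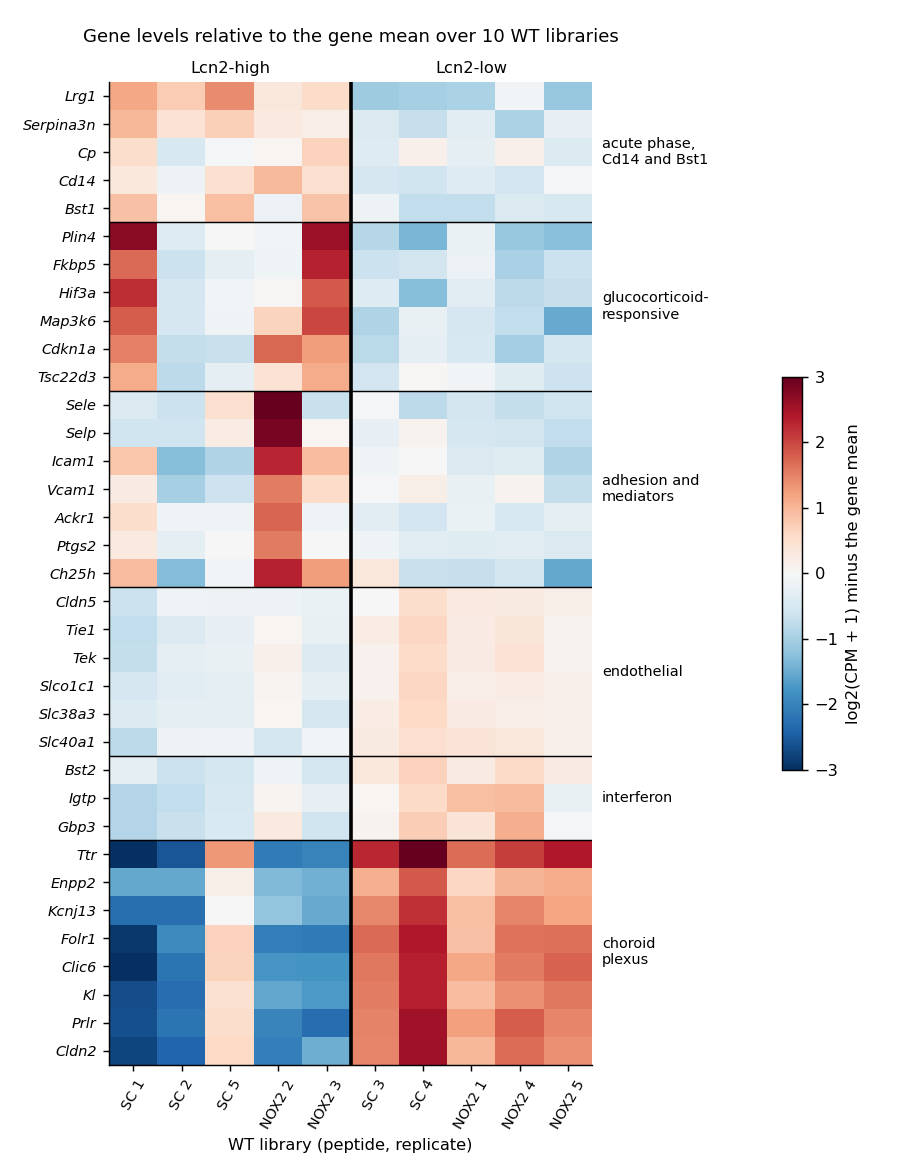
Levels of 35 genes in the 10 WT libraries, as log2(CPM + 1) minus the mean of the gene, with colours limited to -3 and 3; the line divides Lcn2-high from Lcn2-low. Lrg1 and Serpina3n are higher throughout Lcn2-high, the glucocorticoid-responsive genes in WT_SC 1 and WT_NOX2 3, the selectins in WT_NOX2 2, and the choroid plexus genes are higher throughout Lcn2-low.

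Neutrophils are a rich source of LCN2 protein. Of 24 neutrophil genes 6 could be tested, 0 were called and the median was 0.26. At an unadjusted p under 0.05, 1 was higher and 0 were lower by edgeR, beside 4.92% and 6.8% of all genes. The summed level of the list was 19.2 to 41.4 CPM in Lcn2-high, 15.6 to 24.7 CPM in Lcn2-low and 28.0 to 46.8 CPM in APP/PS1, so the APP/PS1 libraries, with low Lcn2, lay above every WT library other than WT_NOX2 2. A large part of this sum was the receptor gene Csf3r, which ranged in WT from 8.61 to 16.9 CPM. Every APP/PS1 library held more of it, from 20.3 CPM upwards to 29.4 CPM. Its mean there was 24.2 CPM, within a mean sum of 37.3 CPM. In Lcn2-low its mean was 10.3 CPM, within a mean sum of 19.2 CPM. The higher sums with the transgene thus rest in large part on 1 gene, and a difference in neutrophil number was not tested. S100a8 was at most 3.21 CPM in any WT library, in WT_NOX2 2, and Ly6g, Elane and Wfdc21 had 0 counts in all WT libraries. The markers of the cell types that the labels name gave 0 calls by edgeR. At an unadjusted p under 0.05, 4 of 14 brain endothelial genes and 1 of 8 pericyte genes were lower, and 1 of 8 astrocyte genes was higher, beside 6.8% of all genes lower and 4.92% higher. The summed monocyte list was 61.9 to 88.3 CPM in Lcn2-high and 51.7 to 63.5 CPM in Lcn2-low (p = 0.0317, exact two-sided permutation test, adjusted p = 0.333 over 21 library properties). Nearly all of this sum was Vcan, at 60.2 to 86.5 CPM in Lcn2-high and 48.1 to 62.0 CPM in Lcn2-low. Of its 2 tested genes 0 were called, with log2 differences of 0.31 for Vcan and -0.34 for Ccr2. The sum is thus a measure of Vcan more than of monocyte genes as a group. The summed neuron list was 3724 to 5005 CPM in Lcn2-high and 3217 to 3967 CPM in Lcn2-low (p = 0.0635, exact two-sided permutation test, adjusted p = 0.433 over 21 library properties), and all 8 neuron genes had positive differences with 0 called and 3 at an unadjusted p under 0.05 by edgeR, beside 4.92% of all genes higher.

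Of all lists, that of choroid plexus epithelium had the median farthest from 0. The choroid plexus is the secretory epithelium that makes cerebrospinal fluid, and its cells are not among those that the labels name. The summed level of 8 choroid plexus epithelium genes was 335, 477 and 3272 CPM in the Lcn2-high WT_SC libraries and 597 and 577 CPM in the Lcn2-high WT_NOX2 libraries. In Lcn2-low it was 6305 and 11456 CPM with control peptide and 4348, 5811 and 6786 CPM with inhibitor. The sets did not overlap, and WT_SC 5, which had the most Lcn2, also had the highest level of its set. The exact two-sided permutation p was 0.00794, the smallest that 252 splits can give, and 0.167 after adjustment over the 21 library properties. Leaving out 1 library at a time, an alternative added after seeing the data, gave log2 differences between -3.77 and -2.94 around the value of -3.21.

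All 8 choroid genes were lower in every Lcn2-high library than in any Lcn2-low library, beside 404 of all genes tested (2.24%), and their median log2 difference was -3.21. Enpp2, which encodes autotaxin, was 298, 302, 979, 348 and 323 CPM in Lcn2-high and 1837, 3105, 1341, 1759 and 1883 CPM in Lcn2-low, a log2 difference of -2.27 ± 0.34 (SE, adjusted p = 0.0160 by edgeR). The potassium channel gene Kcnj13 had a log2 difference of -2.89 ± 0.50 (SE, adjusted p = 0.0465 by edgeR). The other 6 genes did not pass. Ttr, the transthyretin gene and most abundant choroid transcript, was 10.2, 136, 2012, 190 and 202 CPM in Lcn2-high and 3883, 7285, 2592, 3451 and 4314 CPM in Lcn2-low (log2 difference -3.56 ± 1.25 SE, adjusted p = 0.321 by edgeR). The call for Enpp2 was lost without WT_SC 4, WT_NOX2 2, WT_NOX2 3 or WT_NOX2 4 (adjusted p = 0.128, 0.0601, 0.0721 and 0.0512 by edgeR), and Kcnj13 kept its call only without WT_SC 5 (adjusted p up to 0.214 by edgeR, without WT_SC 4).

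**Figure D4:**
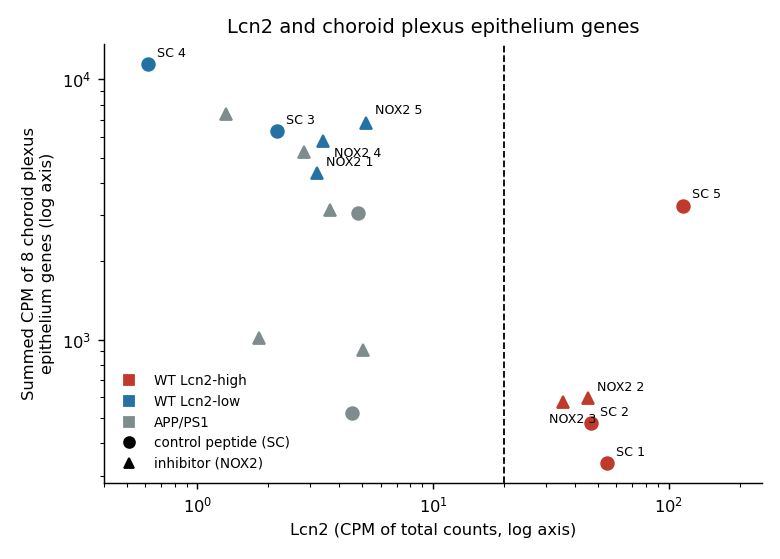
Lcn2 in CPM against the summed CPM of 8 choroid plexus epithelium genes in 17 libraries, both on log axes; colours are the sets, shapes the peptides, and the dashed line is the Lcn2 threshold. The Lcn2-high libraries lie at 335 to 3272 CPM, the Lcn2-low libraries at 4348 to 11456 CPM, and the APP/PS1 libraries at 521 to 7387 CPM with low Lcn2 throughout.

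The 12 genes with the smallest adjusted p among those lower in Lcn2-high were Tgfb2, Calml4, Htr2c, Cab39l, Slc24a5, Pla2g5, Sowahc, Slc39a4, Rbm47, Ltc4s, Cox8b and Tspan33, and each kept its call with every library left out in turn. Htr2c, the serotonin 2C receptor gene, which is abundant in choroid plexus and in neurons, was 57.4, 59.3, 89.2, 57.6 and 52.6 CPM in Lcn2-high and 133, 178, 95.9, 114 and 125 CPM in Lcn2-low (log2 difference -1.09 ± 0.13 SE, adjusted p = 0.00236 by edgeR). Calml4, a calmodulin-like gene, was 0.392 to 1.71 CPM against 4.66 to 8.55 CPM. Slc24a5, a calcium exchanger gene, was 0.327 to 2.14 CPM against 3.85 to 10.7 CPM, and Slc39a4, a zinc importer gene, was 0.415 to 1.71 CPM against 2.597 to 8.73 CPM. Rbm47, an RNA-binding protein gene, was 3.53 to 10.7 CPM against 17.6 to 36.4 CPM. In each of these the highest Lcn2-high library was WT_SC 5. Cox8b, a cytochrome oxidase subunit gene, had 0 counts in WT_SC 1 and at most 0.518 CPM in the other Lcn2-high libraries, against 1.57 to 2.998 CPM.

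The APP/PS1 libraries, whose Lcn2 was low throughout, gave a separate view of these genes. The choroid list there spread from 521 to 7387 CPM, and a fit of its log2 level over the 7 libraries, added after seeing the data, called 76 of 18561 genes, all rising with it (0.409%). With a library left out, falling calls appeared in 3 of the 7 fits: 9 beside 64 rising without APP_SC 1, 11 beside 64 without APP_SC 2 and 2 beside 63 without APP_NOX2 3. Of the 164 genes lower in Lcn2-high, 162 could be tested there, and 42 of them (25.9%) rose with the choroid level while 0 fell. The 76 include all 8 genes of the list itself and the 42 include Enpp2 and Kcnj13, whose levels make up the term. Without the list's genes 40 of 160 rose (25%), beside 0.367% of all genes outside the list. The 42 had a median log2 difference between the WT sets of -2.11. Calml4, Htr2c, Cab39l, Slc24a5, Pla2g5, Sowahc and Rbm47 were among these 42. Of the 9 higher genes 0 rose and 0 fell with the choroid level. In this fit of all 7 libraries 0.409% of all genes rose and 0 fell. The count for 9 genes therefore cannot tell whether they go with the choroid level. Trpm3, a cation channel gene expressed in choroid plexus and chosen after its values were seen, was 113, 113, 241, 112 and 110 CPM in Lcn2-high and 348, 548, 248, 411 and 331 CPM in Lcn2-low, and it was also among the 42. Its adjusted p by edgeR was 0.0125 over all WT libraries, 0.1002 without WT_SC 4 and 0.0567 without WT_NOX2 3.

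The other 120 lower genes that could be tested had a median log2 difference of -0.88. Their slope on the choroid level in APP/PS1 was positive without passing in 93 (77.5%), beside 48.5% positive among all genes tested there. Tgfb2, which encodes a transforming growth factor, had the smallest adjusted p of all. It was 55.0, 45.9, 52.8, 48.1 and 46.2 CPM in Lcn2-high and 100.2, 118, 75.0, 85.2 and 82.8 CPM in Lcn2-low, with sets well apart (log2 difference -0.93 ± 0.09 SE, adjusted p = 0.00142 by edgeR). Tie1, an endothelial receptor gene, was 56.8, 70.4, 80.3, 99.7 and 81.0 CPM against 111, 146, 112, 123 and 103 CPM (log2 difference -0.60 ± 0.13 SE, adjusted p = 0.0465 by edgeR), and kept its call in 2 of the 10 fits that left out a library. Npr1, a natriuretic peptide receptor gene, had a log2 difference of -0.81 ± 0.17 (SE, adjusted p = 0.0392 by edgeR), and Ctnnb1, encoding beta-catenin, one of -0.67 ± 0.13 (SE, adjusted p = 0.0257 by edgeR). Dbp, a transcription factor gene of the circadian output, was 46.9, 51.7, 59.96, 37.1 and 50.4 CPM against 85.6, 81.1, 75.5, 86.5 and 67.7 CPM (log2 difference -0.73 ± 0.10 SE, adjusted p = 0.00611 by edgeR). Without WT_SC 4 the adjusted p by edgeR was 0.184 for Tie1, 0.160 for Npr1 and 0.0847 for Ctnnb1. Tie1, Npr1, Ctnnb1 and Dbp were chosen after their values were seen.

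Barrier transporter, iron and interferon lists each gave 1 lower call and no higher call, beside 0.909% of all genes called lower. Of 14 barrier transporter genes only Slc38a3, a glutamine transporter gene, was called (103, 115, 114, 143 and 96.9 CPM against 161, 208, 163, 159 and 153 CPM, log2 difference -0.56 ± 0.12 SE, adjusted p = 0.0348 by edgeR). Of 12 iron-handling genes only Slc40a1, encoding the iron exporter ferroportin, was called (33.0, 51.6, 54.2, 39.8 and 54.4 CPM against 70.4, 83.1, 75.6, 74.2 and 64.8 CPM, log2 difference -0.67 ± 0.13 SE, adjusted p = 0.0303 by edgeR). Of 12 tight junction and barrier genes 0 were called. The median of that list was -0.22, with 9 differences negative and 3 positive. At an unadjusted p under 0.05 by edgeR, 3 were lower and 0 higher, beside 6.8% of all genes lower. Plvap (log2 difference -1.18, adjusted p = 0.0637 by edgeR) and the tight junction gene Cldn5 missed the threshold. Cldn5 was 168 to 238 CPM against 263 to 378 CPM (log2 difference -0.49 ± 0.12 SE, adjusted p = 0.0736 by edgeR). Both were chosen after their values were seen. Of 25 tested interferon-stimulated genes Bst2, encoding tetherin, was called (4.03, 2.90, 3.21, 4.58 and 3.20 CPM against 6.53, 8.73, 6.18, 8.06 and 6.21 CPM, log2 difference -0.96 ± 0.18 SE, adjusted p = 0.0215 by edgeR). The interferon list median was -0.51, 24 of 25 differences were negative, and 12 had an unadjusted p under 0.05 by edgeR, beside 6.8% of all genes. Without WT_SC 4 the adjusted p by edgeR was 0.170 for Slc38a3, 0.169 for Slc40a1 and 0.136 for Bst2. Slc38a3 held in 1 of the 10 fits that left out a library, Slc40a1 in 5 and Bst2 in 6.

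**Figure D5:**
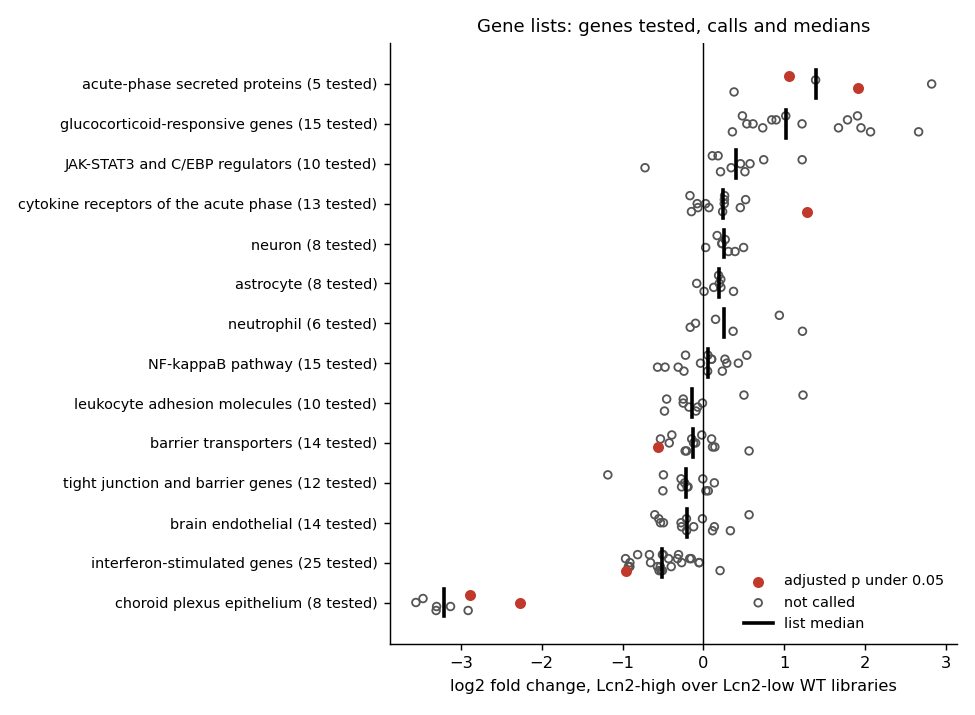
Log2 differences between the Lcn2 sets for the tested genes of 14 lists, where each point is a gene, filled points have an adjusted p under 0.05 by edgeR and bars are list medians. The choroid plexus list has a median of -3.21 and the acute-phase list 1.39, while the NF-kappaB list lies at 0.05.

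The log2 level of the choroid list was added as a covariate to the WT fit, an alternative added after seeing the data. Then 0 of 18398 genes were called by edgeR, and 419 had an unadjusted p under 0.05 (215 higher and 204 lower). The choroid level did not overlap between the Lcn2 sets, so level and set can hardly be told apart over 10 libraries. With the covariate, 147 of the 164 lower genes stayed negative, with a median log2 difference of -0.34. Among all genes 51.2% were negative, with a median of -0.01. Of the 164, 10 had an unadjusted p under 0.05 by edgeR, among them Tgfb2 (-0.86), Dbp (-0.54) and Bst2 (-1.04). All 9 higher genes stayed positive, but their median log2 difference went from 1.04 to 0.63, with Zfp52 going from 0.71 to 0.16 and Scrt2 from 0.63 to 0.34. Lrg1, Cd14, Bst1 and Serpina3n had an unadjusted p under 0.05 by edgeR (0.000856, 0.00525, 0.0230 and 0.0499). The lower and higher genes were called in these same libraries, so the signs and p-values kept here are a description. For Serpina3n the log2 difference was 0.81 with the covariate, and for Cd14 it was 1.65.

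Within each peptide the direction of the calls was kept. Among control-peptide libraries alone (3 against 2) all 160 lower genes that could be fitted were negative, with a median of -1.18, and all 9 higher genes were positive, with a median of 1.03. Among inhibitor libraries alone (2 against 3) all 162 that could be fitted were negative, with a median of -0.94, and the 9 higher genes had a median of 0.86. These libraries are those that gave the calls, so the signs are a description. The number of calls was 2 with control peptide and 113 with inhibitor. Lrg1 differed by a log2 of 2.53 with control peptide and 1.34 with inhibitor. The test of that difference, the interaction of set and peptide, called 0 of 18398 genes by edgeR, with 835 at an unadjusted p under 0.05 (4.54%), and for Lrg1 its unadjusted p was 0.0182 and its adjusted p 0.951 by edgeR.

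In the APP/PS1 libraries log2 Lcn2 was used as a continuous term, since no library reached the threshold. By edgeR 0 of 18561 genes were called, and 148 had an unadjusted p under 0.05 (0.797%). Lcn2 spans a narrow range there, from 1.32 to 5.03 CPM. Of the 162 WT lower genes that could be tested, 149 had a negative slope on Lcn2 (92.0%), beside 50.8% of all genes tested. APP_NOX2 4, with the lowest Lcn2 of these 7 libraries, also had the highest choroid level, and the part of the choroid level in these slopes was not tested. Of the 9 higher genes 5 had a positive slope. Their median slope was 0.003, near the -0.002 of all genes tested there. Among those with a negative slope were Serpina3n (-0.23) and Cd14 (-0.39). Lrg1 was 10.4 and 3.15 CPM with control peptide and 3.72, 2.91, 6.61, 2.46 and 3.59 CPM with inhibitor, a slope of 0.58 ± 0.33 (SE) in log2 per doubling of Lcn2 (unadjusted p = 0.112 by edgeR). Tgfb2, the gene with the smallest adjusted p in WT, had a slope of 0.20, opposite in sign to its WT difference (unadjusted p = 0.449 by edgeR).

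Genes that followed Lcn2 most closely over the 10 WT libraries were ranked by Pearson's r of log2 CPM, with no coefficient given because the libraries lie in separate sets. The first 8 were Amph, Pibf1, Pou3f3, Zfp644, Xylb, Gm43437, Camk4 and Gm38169. Their log2 differences were small, from 0.12 for Zfp644 to 0.49 for Gm38169, and 0 of 8 were called by edgeR. Amph, encoding the synaptic protein amphiphysin, was 98.5, 104, 109, 106 and 102 CPM in Lcn2-high and 90.1, 78.6, 87.3, 98.3 and 89.9 CPM in Lcn2-low. Slc22a17, which encodes a receptor for LCN2, was 353, 406, 422, 351 and 358 CPM against 469, 487, 474, 381 and 499 CPM (log2 difference -0.31 ± 0.10 SE, unadjusted p = 0.00987 and adjusted p = 0.226 by edgeR). Its sets overlapped through WT_NOX2 4 alone. Cybb, the catalytic subunit gene of NOX2, was 3.42 to 6.48 CPM against 3.30 to 8.75 CPM (log2 difference -0.34 ± 0.25 SE, adjusted p = 0.637 by edgeR). Neither gene passed the adjusted threshold.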

How the data were processed

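Cortical microvessels were isolated by dextran centrifugation, and rRNA-depleted, stranded libraries were sequenced, per the labels' protocols. The authors' deposited table holds raw read counts per Ensembl gene (42687 genes). The submitters' processing notes name cutadapt, STAR, HTSeq and DESeq2 and the builds mm10 and GRCh37, with no role or version. Another 20 columns matched no sample and were not used. Symbols came from GENCODE vM21 (42250 IDs matched, 437 did not).

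Levels are CPM on the total count, on which the Lcn2 threshold of 20 was set. Genes were kept by filterByExpr, scaled by TMM and tested with edgeR 4.0.16 (robust quasi-likelihood F test, R 4.3.3), with Benjamini-Hochberg adjustment over all genes and a threshold of 0.05. The design was tested on simulated data. Of 136 pairs of libraries 0 were identical, and the chi-square per degree of freedom within groups was 5.37 to 91.4. Library properties were compared by exact permutation tests. DESeq2 1.42.0 was an alternative. Floors cover counting error only, while the SD and SE values include the spread between libraries.

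Members and gene lists were chosen with earlier results of these data known. The rule for named genes took up to 12 genes in each direction, leaving out unnamed models, up to 4 called genes per list (otherwise its most abundant member), the 8 genes most like Lcn2, Slc22a17 and Cybb. Other genes were chosen after their values were seen. Lists without a mention had 0 calls.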

Additional observations from a re-analysis of the deposited data

Results flagged for a closer look

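Within sets of 5 libraries, 88 sets of values were examined for a library far from the rest (a gap over 0.71 of the range), and 16 were found. Chance gives about 4.4 if the 88 are independent and normally distributed. They are not independent, as many of these genes and lists go together over the libraries, so 4.4 is a rough guide only. All 16 lay in 5 libraries. WT_SC 5 was the highest of Lcn2-high for Htr2c (89.2 CPM), Slc24a5 (2.14 CPM), Sowahc (13.9 CPM) and the choroid plexus epithelium list (3272 CPM, the others 335 to 597 CPM). WT_SC 4 was the highest of Lcn2-low for Slc24a5 (10.7 CPM), Ltc4s (8.55 CPM), Cox8b (2.998 CPM) and the summed lists of pericyte (1775 CPM), lymphocyte (13.5 CPM) and platelet genes (21.0 CPM). WT_NOX2 2 was the highest of Lcn2-high for the pericyte (1712 CPM), neutrophil (41.4 CPM) and lymphocyte lists (7.92 CPM). In Lcn2-low, WT_NOX2 4 was the highest for Lrg1 (6.29 CPM) and the lowest for Slc22a17 (381 CPM), and WT_NOX2 1 was the highest for the microglia list (290 CPM).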

How the results depend on the processing

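Against 173 calls (9 higher, 164 lower), edgeR with DESeq2 size factors, total counts, a filter at 1 CPM, no peptide covariate or a continuous Lcn2 term gave 163 to 235 calls. A threshold of 10 CPM gave the same sets, as no WT library lay between 5.19 and 35.6 CPM, so its 173 calls were fixed in advance. DESeq2's Wald test called 401 (50 higher, 351 lower) and no filter on low counts 1007 (378 and 629), and both included all 173. A threshold of 40 CPM, which moves WT_NOX2 3 into the low set, called 0 by edgeR, with 2541 at an unadjusted p under 0.05. Control-peptide libraries alone gave 2 (1 and 1), inhibitor libraries alone 113 (20 and 93), and all 17 libraries in 1 fit 93 (5 and 88). Leaving out 1 library gave 27 to 249 calls, 0 to 14 higher and 27 to 235 lower. The added alternatives gave 0 (0 and 0) with the choroid covariate and 65 (2 and 63) without WT_SC 1 and WT_NOX2 3. The cause of these moves was not tested. The APP/PS1 slope gave 0 to 1 calls with a library left out. The interaction gave 138 without a filter and 0 to 4 with a library left out, 4 of them without WT_SC 1. For the APP/PS1 choroid fit the range was 59 to 77. Over 31 called genes named or reviewed, 494 of 744 alternative values kept the call, 250 lost it and 0 changed sign. The 494 include the values at the threshold of 10 CPM, which could only keep the call. No APP/PS1 set term could be fitted, as 0 libraries reached the threshold. No paired analysis was possible because replicate numbers were given in sample order and pair no libraries. Lcn2 in the Lcn2-low set rests on 7 to 66 counts.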
